A study of Arabidopsis thaliana with 6 samples.

Results

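The miR172 family of Arabidopsis thaliana has 5 loci, MIR172a to MIR172e, taken here by their gene identifiers (AT2G28056, AT5G04275, AT3G11435, AT3G55512 and AT5G59505). All 5 were among the 60936 features, 164 of them single miRNA loci, on which small RNA reads of mature pollen were counted, and no segment shared with another gene held any of them. Pollen of accession Col was compared between paps1-3, a mutant allele of the nuclear poly(A) polymerase gene PAPS1, and WT. Each genotype had 3 libraries, numbered 16, 20 and 26 for paps1-3 and 15, 19 and 25 for WT. Per the labels' protocols, an isolation gave a paps1-3 and a WT fraction by sorting 1 pool of grains, this was done 3 times, and whole RNA was extracted. Separate plants are not named for the isolations. The p-values thus measure only how these libraries spread, which may be technical, and genotype and sort gate cannot be told apart.

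A plant microRNA is cut by a Dicer enzyme out of a hairpin transcript, and the strand that is kept guides an Argonaute protein to matching messengers. miR172 pairs with messengers of the AP2 family of transcription factors, which delay the change from the juvenile to the adult phase and flowering and, in the case of AP2, specify floral organs. In the age pathway miR156 holds back SPL transcription factors, which in turn promote MIR172 transcription, so that miR156 and miR172 follow opposite courses as a plant ages.

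The mature 3′-arm products, which carry the miR172 seed, are shown because they differ from each other only in their first and last base. The sequences are those of RefSeq on TAIR10.1, read 5′ to 3′, with the seed (bases 2 to 8) in capitals.
miR172a, chr2:11942918-11942938, minus strand: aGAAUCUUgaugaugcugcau
miR172b-3p, chr5:1188211-1188231, minus strand: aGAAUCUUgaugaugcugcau
miR172c, chr3:3599791-3599811, minus strand: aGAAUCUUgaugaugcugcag
miR172d-3p, chr3:20587991-20588011, plus strand: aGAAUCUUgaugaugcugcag
miR172e-3p, chr5:23988566-23988586, plus strand: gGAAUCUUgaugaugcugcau
All 5 share 1 seed. miR172a and miR172b-3p were identical, as were miR172c and miR172d-3p, and the c/d product differed from the a/b product by U21G, counted from 1 at the 5′ end. miR172e-3p differed from miR172a by A1G. RefSeq also lists 5′-arm products for 3 loci, and those of MIR172b and MIR172e are identical.
miR172b-5p, chr5:1188278-1188297, minus strand: gCAGCACCauuaagauucac
miR172d-5p, chr3:20587921-20587941, plus strand: gCAACAUCuucaagauucaga
The counts are per locus, so reads of both arms, and of other stretches of the hairpin, are summed in every value that follows. Most 21-nt stretches of a precursor are in none of the other miR172 precursors, and 5 of 82 are shared in MIR172a and 8 of 75 in MIR172b. These are stretches and not reads, and in MIR172a to MIR172d the mature 3′-arm product is itself a shared stretch. The share of reads that match several loci is thus not known.

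The hairpins of MIR172a and MIR172c are given next to show where that product lies, with the mature 3′-arm sequence in capitals. The MIR172a precursor spans 102 bp at chr2:11942914-11943015 (minus strand) and that of MIR172c 133 bp at chr3:3599776-3599908 (minus strand). In RefSeq none of the 5 precursors overlaps another annotated gene.
MIR172a: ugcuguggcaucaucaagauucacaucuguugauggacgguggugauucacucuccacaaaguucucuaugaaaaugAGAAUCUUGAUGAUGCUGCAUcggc
MIR172c: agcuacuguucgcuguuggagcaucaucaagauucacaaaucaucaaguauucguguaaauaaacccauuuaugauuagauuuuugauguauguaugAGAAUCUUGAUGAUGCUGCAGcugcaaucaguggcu
Each 21-nt mature sequence of MIR172a to MIR172d matched the genome exactly at 2 places, namely its own locus and that of its twin. Cut back by 1, 2 or 3 bases at the 3′ end, it matched at 4 places, the loci MIR172a to MIR172d. A 21-nt read of the exact mature sequence therefore separates the a/b from the c/d product but not the loci within a pair. A read of 18 to 20 nt that lacks the 3′ end separates none of the 4. Nor does a 21-nt read that starts 1 base upstream and so lacks base 21. The base before the product is the same in these 4 hairpins. Read positions are not given with the counts, so such shifted reads could not be set apart. miR172e-3p matched only MIR172e, whole or cut back at the 3′ end. A read of it that lacks the first base also matches MIR172a and MIR172b.

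The mRNA of each target holds a site for this product. The sites are shown as the best ungapped match to miR172a in the RefSeq messengers, with the base that faces position 21 of the miRNA in capitals.
AP2, chr4:17403019-17403039, plus strand: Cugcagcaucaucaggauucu
TOE1, chr2:12226233-12226253, minus strand: Cagcagcaucaucaggauucu
TOE2, chr5:24210889-24210909, plus strand: Augcagcaucaucaggauucu
TOE3, chr5:26802175-26802195, minus strand: Uggcagcaucaucaggauucu
SMZ, chr3:20373774-20373794, minus strand: Uugcagcaucaucaggauucc
SNZ, chr2:16389066-16389086, minus strand: Uuguagcaucaucaggauucc
The site lay in the coding sequence in 5 of the 6 targets, and SNZ was the exception. With the c/d product 5 of the 6 sites had 1 mismatch fewer than with the a/b product, counting G:U pairs as no mismatch. AP2, for example, had 0 mismatches with the c/d product and 1 with the a/b product. TOE2 went the other way, with 1 and 0.

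The libraries held 5562287 to 9922763 counted reads in paps1-3 and 9312167 to 10139424 in WT. PAPS1 itself had 0, 0 and 1 reads in paps1-3 libraries 16, 20 and 26, against 7, 4 and 4 in WT libraries 15, 19 and 25, which is a weak check of the labels, since these are short fragments and not messenger levels. The genotypes separated on the first principal component (59.0% of the variance), and libraries 16 (paps1-3) and 15 (WT) stood apart from the other 4 on the second (19.6%). Of genes that mark other cells, the 5 tapetum genes held 0.253 to 0.907 RPM, scaled to all counted reads, in paps1-3 and 1.74 to 1.97 in WT, and the 7 leaf photosynthesis genes 3.79 to 8.57 and 11.7 to 15.9 RPM. The 4 vegetative-cell genes of pollen held 800 to 1240 RPM in paps1-3 and 1206 to 1441 in WT, and the 6 sperm-cell genes 7.58 to 8.97 and 14.4 to 14.6. Over all lengths edgeR with TMM, which called 14.3% of all features higher and 3.99% lower, called VEX1 and PPME1 higher and PTEN1 lower among the 4 vegetative-cell genes, DAZ2 lower among 4 tested sperm-cell genes, and none of 4 tested leaf genes, while no tapetum gene was tested. With scaling to all counted reads, the scale of the RPM above, the leaf gene CAB1 was also called lower (log2 −1.48, edgeR adjusted p = 0.0129). On that scale 5426 of 13464 features were called lower, and the median log2 fold change of all features was −0.94. Whether the levels of these marker genes bear on the miR172 values was not tested, and fewer cells of a type cannot be told apart from less RNA per cell.

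At 21 nt, the length of the mature miRNA, reads of MIR172c and MIR172d were higher in paps1-3 pollen while those of MIR172a and MIR172b were not. MIR172c had 129, 86 and 248 reads in paps1-3 libraries 16, 20 and 26, against 32, 114 and 139 in WT libraries 15, 19 and 25. Scaled to the 21-nt depth of each library with TMM factors, which take account of makeup, as CPM, these were 193, 136 and 225 CPM in paps1-3 and 26.95, 62.2 and 75.1 CPM in WT. Every paps1-3 library was above every WT library, and WT 15 was the lowest of all. How many of all features separated in this way was not counted, here or for the other comparisons without overlap below. The means were 185 ± 45.0 CPM in paps1-3 and 54.8 ± 24.9 CPM in WT (SD, n = 3 each), or 1.74 on the log2 scale (SE 0.41, edgeR quasi-likelihood test with Benjamini-Hochberg adjustment, adjusted p = 0.00894).

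MIR172d, which gives the same mature RNA, had 112, 80 and 256 reads in the paps1-3 libraries and 40, 135 and 145 in the WT libraries. In CPM these were 168, 126 and 232 in paps1-3 and 33.7, 73.7 and 78.3 in WT, again without overlap. The change on the log2 scale was 1.497 (SE 0.40), with an edgeR adjusted p of 0.0187. Since both loci share 1 mature 3′-arm sequence, and how shared reads were assigned is not given, their increases may not be independent.

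MIR172a had 6, 7 and 6 reads of 21 nt in paps1-3 and 7, 38 and 47 in WT. At 8.99, 11.1 and 5.44 CPM in paps1-3 and 5.90, 20.7 and 25.4 CPM in WT the genotypes overlapped through WT 15. Its log2 fold change of −1.14 (SE 0.52) did not pass the test (edgeR adjusted p = 0.157). It passed in a fit that blocked on adjacent library numbers, taken as the isolations (−1.12, edgeR adjusted p = 0.0208). It also passed without WT 15 (−1.48, edgeR adjusted p = 0.00611) and with scaling to all counted reads (−1.91, edgeR adjusted p = 0.0220).

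MIR172b had 5, 4 and 28 reads in paps1-3 and 10, 33 and 57 in WT, or 7.49, 6.32 and 25.4 CPM and 8.42, 18.02 and 30.8 CPM. The paps1-3 library 26 lay within the WT range, and the other two paps1-3 libraries lay below it. Its log2 value was −0.45 (SE 0.53), which did not pass (edgeR adjusted p = 0.581). Without paps1-3 26 it was −1.53 (edgeR adjusted p = 0.178), and without WT 25 it was 0.032 (edgeR adjusted p = 0.976).

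MIR172e had 2, 1 and 2 reads of 21 nt in paps1-3 and 2, 5 and 5 in WT. It was the one member that failed the count filter at this length, so that 4 of the 5 were tested. Of these 4, edgeR called 2 higher and none lower (adjusted p under 0.05). Over all 3181 features tested at 21 nt, 14.5% were called higher and 4.68% lower. None of the 4 was called lower by DESeq2 or limma-trend either, and 1, MIR172a, was lower at an unadjusted p below 0.05 with edgeR.

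**Figure D1:**
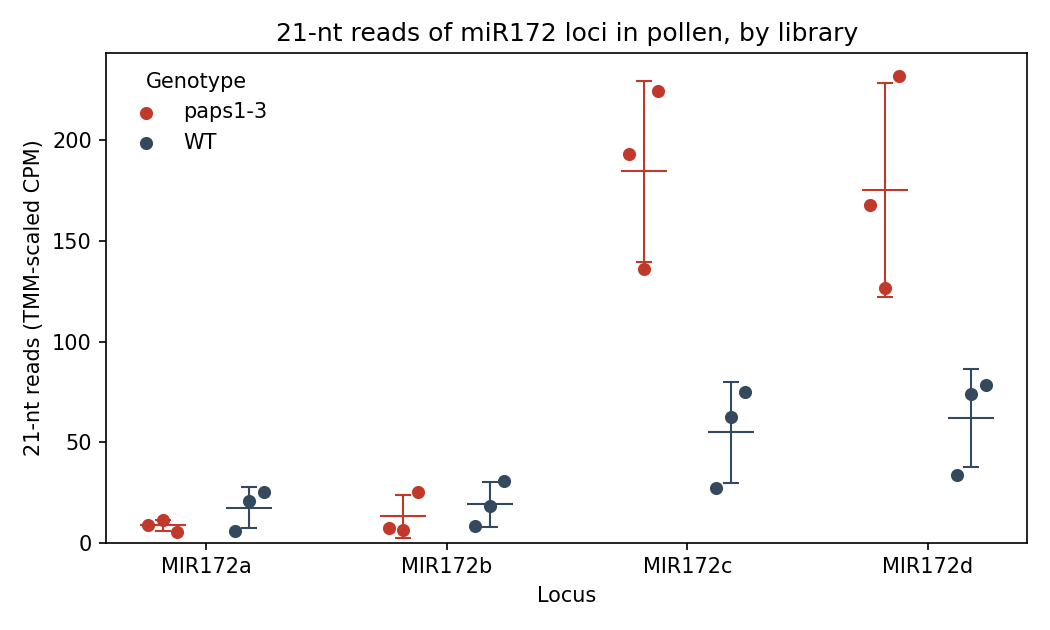
TMM-scaled CPM of 21-nt reads (vertical axis) at the 4 tested miR172 loci in paps1-3 (red) and WT (dark) pollen, with points for libraries and bars for the mean and SD of 3 libraries. For MIR172c all paps1-3 libraries, at 136 CPM or more, are above the highest WT library, at 75.1 CPM, while for MIR172a and MIR172b the genotypes overlap.

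The pairs ran in the same order of level at 21 nt in both genotypes. MIR172c and MIR172d came first, at 185 and 175 CPM in paps1-3 and 54.8 and 61.9 in WT, and the pair did not differ beyond its spread. MIR172b and MIR172a followed at 13.1 and 8.50 CPM in paps1-3 and 19.1 and 17.3 in WT, again within their spread. A mature read spans its whole product, so the level of mature reads does not grow with the length of the precursor. Reads of other stretches of the hairpin are also counted, and their part in these levels was not measured. Per 100 bp of precursor the values were 139, 141, 13.8 and 8.33 CPM for MIR172c, MIR172d, MIR172b and MIR172a in paps1-3 and 41.2, 49.9, 20.1 and 17.0 in WT.

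How far MIR172c and MIR172d rose depended on the scale. The median log2 fold change of all features tested at 21 nt was −0.13 with TMM, −0.82 with scaling to all counted reads of 18 to 28 nt, and 0.27 with scaling to the summed reads of miRNA loci. With all counted reads MIR172c had 0.94 and MIR172d 0.71, and neither was called (edgeR adjusted p = 0.103 and 0.190), while 6.26% of all features were called higher and 31.6% lower. On that scale MIR172c had 16.3, 15.5 and 25.0 RPM in paps1-3 and 3.16, 11.7 and 14.9 RPM in WT, without overlap (exact two-sided permutation p = 0.1, the lowest possible with 3 libraries a genotype). MIR172d had 14.1, 14.4 and 25.8 RPM in paps1-3 and 3.95, 13.8 and 15.6 RPM in WT, and overlapped (exact permutation p = 0.4). With miRNA loci the log2 fold changes were 2.08 and 1.85 (edgeR adjusted p = 0.000753 and 0.00149), where 25.5% of all features were called higher and 2.23% lower. Set against the median feature of the same scaling, MIR172c was at 1.88, 1.76 and 1.81 with TMM, all counted reads and miRNA loci, and MIR172a at −1.01, −1.09 and −1.07. Without paps1-3 26 the calls of MIR172c (log2 1.53, edgeR adjusted p = 0.0508) and MIR172d (1.19, edgeR adjusted p = 0.110) at 21 nt were lost.

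**Figure D2:**
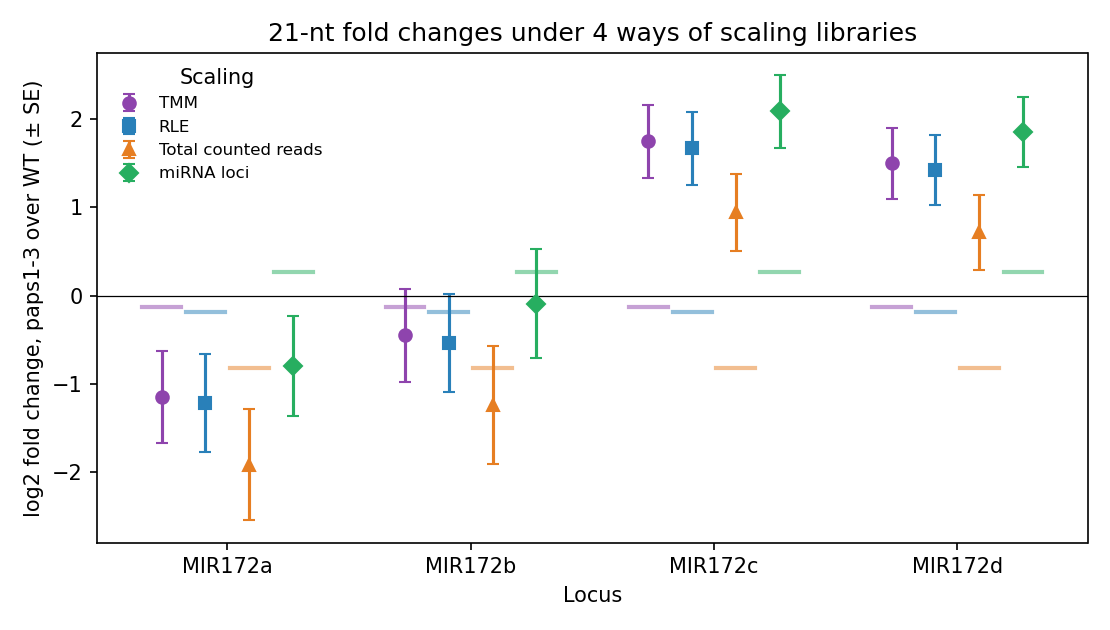
Log2 fold change of 21-nt reads, paps1-3 over WT, with its SE (vertical axis) for 4 loci under TMM, RLE, total counted reads and miRNA-locus scaling, and short lines at the median of all tested features under the same scaling. MIR172c and MIR172d lie above that median under each scaling, and MIR172a lies below it.

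Within a library the balance of reads between MIR172c with MIR172d and MIR172a with MIR172b can be read with no scaling at all. Among 21-nt reads of MIR172a to MIR172d, MIR172c and MIR172d held 241 of 252, 166 of 177 and 504 of 538 reads in paps1-3 libraries 16, 20 and 26. That is 95.6% (95% exact binomial interval 92.3 to 97.8), 93.8% (89.2 to 96.9) and 93.7% (91.3 to 95.6). In WT libraries 15, 19 and 25 they held 72 of 89, 249 of 320 and 284 of 388 reads, which is 80.9% (71.2 to 88.5), 77.8% (72.9 to 82.2) and 73.2% (68.5 to 77.5). Intervals cover counting error only, and any 21-nt reads that lack base 21 cannot be assigned to a pair. No paps1-3 interval reached that of a WT library.

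As a ratio, reads on MIR172c and MIR172d over those on MIR172a and MIR172b stood at 21.9, 15.1 and 14.8 in paps1-3 and 4.24, 3.51 and 2.73 in WT. The mean log2 ratio was 4.09 ± 0.32 in paps1-3 and 1.78 ± 0.32 in WT (SD, n = 3 each), a difference of 2.31 or 4.94-fold (exact two-sided permutation p = 0.1, the smallest this design allows). The ratio was chosen with earlier results of these data known, so its direction and p-value are no separate evidence beside the values per locus. Between adjacent library numbers, taken as the isolations, the ratio was 5.17-fold higher in paps1-3 16 than in WT 15, 4.30-fold higher in 20 than in 19, and 5.43-fold higher in 26 than in 25. The difference was thus seen in all 3 of these assumed isolations, including that of the libraries which stood apart. Every paps1-3 ratio was above every WT ratio, so any other pairing would give the same direction. Whether MIR172c and MIR172d or MIR172a and MIR172b moved cannot be read from the ratio.

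Against other miRNA loci, reads on MIR172c and MIR172d took a higher share in paps1-3. MIR172c and MIR172d made up 0.403%, 0.300% and 0.584% of 21-nt reads on miRNA loci in paps1-3, against 0.0428%, 0.137% and 0.151% in WT. The groups did not overlap, and the means stood 3.89-fold apart (0.429% ± 0.144 and 0.110% ± 0.0587, SD, n = 3 each, exact permutation p = 0.1). MIR172a and MIR172b held 0.0184%, 0.0199% and 0.0394% in paps1-3 and 0.0101%, 0.0390% and 0.0552% in WT, which overlap (exact permutation p = 0.7). All miRNA loci together had 8738 ± 1202 RPM of 21-nt reads in paps1-3 and 18479 ± 1830 RPM in WT, so their sum, the denominator here, itself differed.

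The split within each pair of twins was read next, since their 21-nt 3′-arm reads cannot be assigned by sequence. MIR172c held 49.2% to 53.5% of the reads of its pair in paps1-3 and 44.4% to 48.9% in WT, and all 6 exact intervals included an even split. MIR172a held 54.5% and 63.6% of its pair in paps1-3 16 and 20 and 41.2% to 53.5% in the WT libraries, also with intervals that included an even split. In paps1-3 26 it held 6 of 34 reads, or 17.6% (95% exact interval 6.76 to 34.5), with the other 28 on MIR172b. In 18- to 20-nt reads of paps1-3 26 the pair was even, with 20 on MIR172a and 23 on MIR172b.

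The share of 21-nt reads at a locus is not independent of the 21-nt counts above. Shorter reads of the 3′-arm product that lack its 3′ end match MIR172a to MIR172d alike and cannot be assigned to a pair. A change in 21-nt reads alone moves this share, so it cannot show a separate difference between the pairs. Of all MIR172c reads, 92.1%, 92.5% and 91.2% were 21 nt long in paps1-3, against 71.1%, 74.0% and 78.5% in WT. For MIR172d the share was 86.8%, 89.9% and 89.8% in paps1-3 and 75.5%, 82.3% and 84.8% in WT. MIR172a went the other way, with 37.5%, 35.0% and 6 of 30 reads in paps1-3 16, 20 and 26 and 58.3%, 76.0% and 60.3% in WT. For these loci the genotypes did not overlap (exact permutation p = 0.1 each, a comparison chosen after the values were seen). How many other single miRNA loci separated in this way was not counted. MIR172b overlapped, at 37.7% ± 15.3 in paps1-3 and 59.9% ± 7.21 in WT (SD, n = 3 each, exact permutation p = 0.2). Over the other miRNA loci together the share was 62.9% ± 2.49 in paps1-3 and 59.4% ± 5.06 in WT, with overlap (exact permutation p = 0.4).

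The reads of 18 to 20 nt did not share the contrast between pairs, but those that lack the 3′ end cannot be assigned to a pair. Summed over 3 libraries, MIR172a, MIR172b, MIR172c and MIR172d had 43, 42, 21 and 35 such reads in paps1-3 and 43, 47, 49 and 35 in WT. MIR172c and MIR172d together held 45.2%, 30.6% and 41.9% of them in paps1-3 and 52.6%, 50.8% and 45.7% in WT. Here every paps1-3 library lay below every WT library, the opposite order to that at 21 nt (a log2 difference of the ratio of −0.63, exact permutation p = 0.1). The exact binomial intervals of the genotypes overlapped, and that of paps1-3 20 (16.3 to 48.1) was the only one of 6 that did not include an even split. At 22 nt MIR172c and MIR172d had 17 and 17 reads in paps1-3 and 38 and 30 in WT. At 24 nt, the length of siRNAs in RNA-directed DNA methylation, the 5 loci had 0, 0, 1, 0 and 0 reads in paps1-3 and 1, 0, 1, 0 and 0 in WT, from MIR172a to MIR172e. No member passed the count filter at 20, 22 or 24 nt with all 6 libraries. In settings where MIR172c or MIR172d did pass at 22 nt, neither was called.

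**Figure D3:**
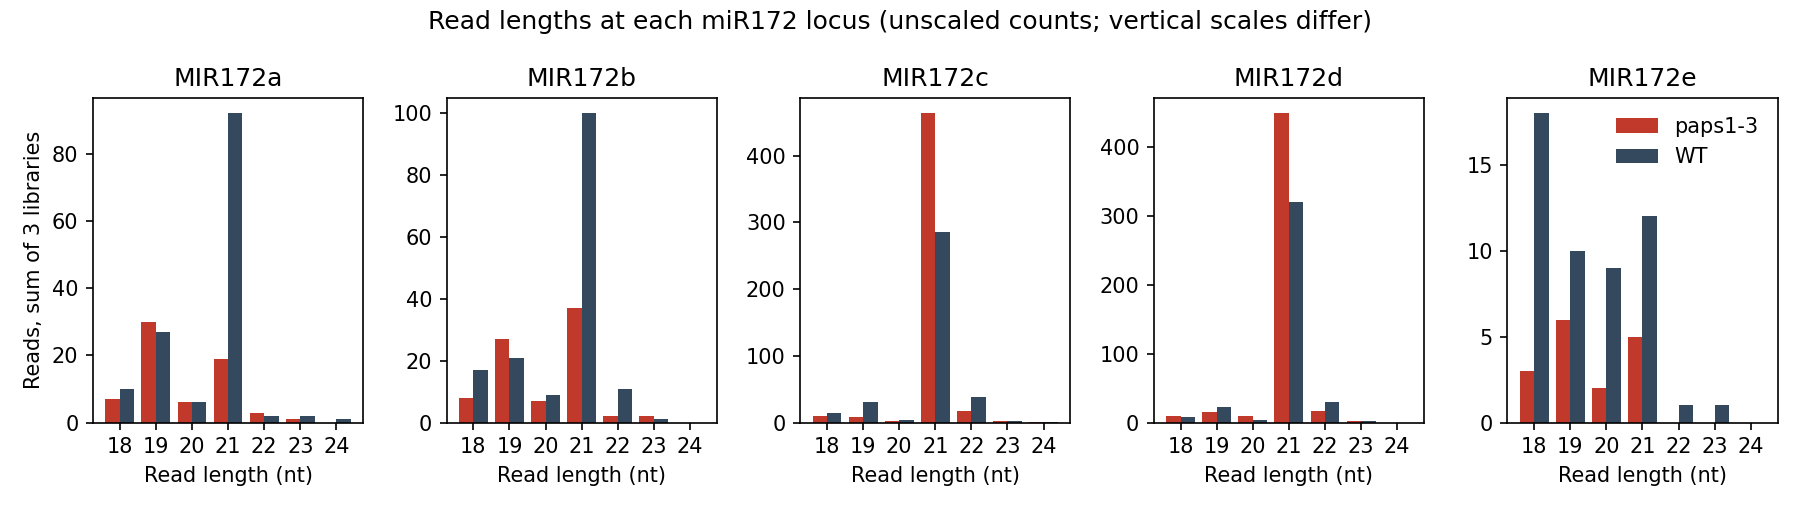
Unscaled reads by length from 18 to 24 nt at each locus, summed over 3 paps1-3 (red) and 3 WT (dark) libraries, with a vertical scale for each locus. At 21 nt paps1-3 has 19 reads on MIR172a against 92 in WT, and 463 on MIR172c against 285, while the reads at 19 nt on MIR172a are 30 and 27.

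**Figure D4:**
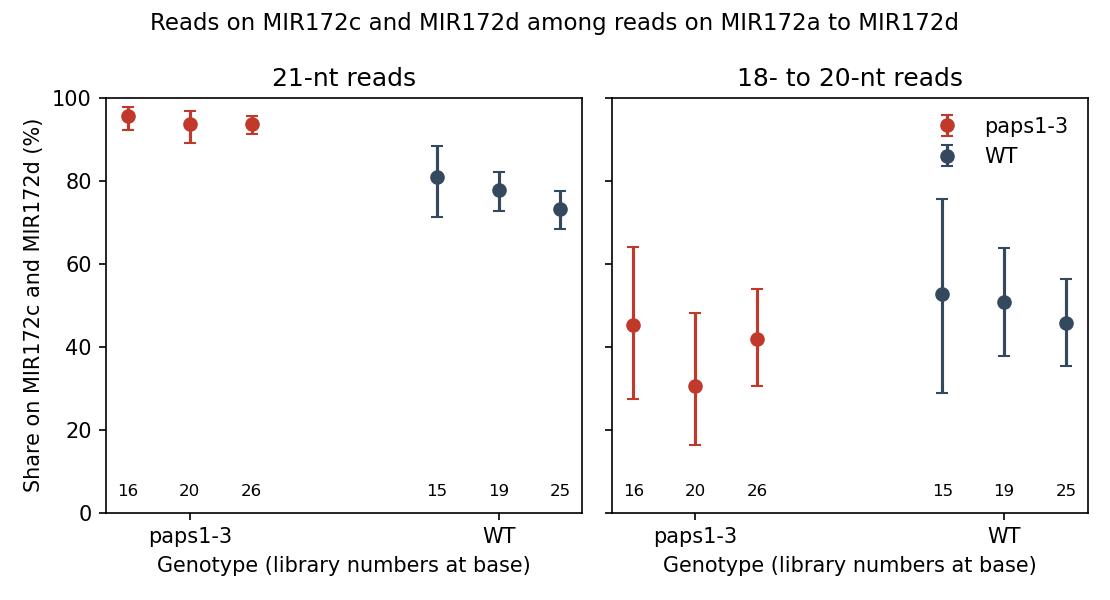
Share of reads on MIR172c and MIR172d among those on MIR172a to MIR172d (vertical axis, percent), by library, for 21-nt reads and for 18- to 20-nt reads, with 95% exact binomial intervals. At 21 nt the paps1-3 libraries lie at 93.7% or above and the WT libraries at 80.9% or below, while at 18 to 20 nt the intervals of the genotypes overlap.

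Summed over all lengths, all 5 loci passed the filter, and MIR172c and MIR172d were again the 2 called, both higher, where edgeR called 14.3% of 13464 features higher and 3.99% lower. MIR172c had 140, 93 and 272 reads in paps1-3 and 45, 154 and 177 in WT (log2 1.54, SE 0.38, edgeR adjusted p = 0.0146). Blocking on adjacent library numbers, the call was lost (1.60, edgeR adjusted p = 0.0520). MIR172d had 129, 89 and 285 reads in paps1-3 and 53, 164 and 171 in WT (log2 1.46, SE 0.35, edgeR adjusted p = 0.0117). Both calls were lost with scaling to all counted reads and without paps1-3 26, and that of MIR172c also without paps1-3 16.

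MIR172a had 16, 20 and 30 reads over all lengths in paps1-3 and 12, 50 and 78 in WT, or 0.084 on the log2 scale (SE 0.46, edgeR adjusted p = 0.919). MIR172b had 14, 17 and 52 and 19, 55 and 85 (0.13, SE 0.41, edgeR adjusted p = 0.860). Both had negative values with all counted reads, at −0.77 and −0.70. In that scaling the median of all features tested was −0.94. Set against that median, MIR172a and MIR172b were at 0.17 and 0.24, beside 0.23 and 0.27 with TMM. MIR172e had 3, 6 and 7 reads in paps1-3 and 6, 21 and 24 in WT (−0.53, SE 0.50, edgeR adjusted p = 0.509). Its whole 3′-arm product matched no other place in the genome, but reads of it without the first base also match MIR172a and MIR172b. Another miR172 precursor holds 7 of the 107 stretches of 19 nt in MIR172e, so these counts may not be of MIR172e alone. Of its reads in WT 18 were 18 nt long and 12 were 21 nt long, summed over 3 libraries.

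The miRNA loci with the most similar profile over the 6 libraries at 21 nt were sought by the mean absolute difference of log2 CPM, centred per locus, among 76 other loci with at least 5 CPM. MIR172c was nearest to MIR319a (0.29), MIR393b (0.30) and MIR319b (0.30), and none of the 76 was nearer to it than its twin MIR172d (0.15). MIR172d was nearest to MIR319b (0.27), MIR773a (0.33) and MIR319a (0.33). Their log2 fold changes ran from 1.06 for MIR773a to 1.99 for MIR393b, a direction fixed by the choice of loci with this profile. MIR172a was nearest to MIR396b (0.26), MIR859 (0.37) and MIR399a (0.40), with log2 fold changes of −0.58, −0.49 and −1.41, again set by that choice. MIR172b was nearest to MIR778 (0.41), MIR781a (0.41) and MIR829 (0.42). Of the 76 loci, 28 were nearer to MIR172a than its own twin MIR172b (0.68). These twins share 1 mature 3′-arm sequence. In paps1-3 16, 20 and 26 they had only 6, 7 and 6 reads (MIR172a) and 5, 4 and 28 (MIR172b). Whether their distance exceeds counting error was not tested.

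Small RNA reads on the targets were too few for most tests, and they are no measure of mRNA. The 6 targets together held 12, 16 and 17 reads of all lengths in paps1-3 libraries 16, 20 and 26, against 28, 39 and 55 in WT libraries 15, 19 and 25. Scaled to all counted reads they held 1.52 to 2.88 RPM in paps1-3 and 2.76 to 5.91 RPM in WT. On that scale the median log2 fold change of all features tested was −0.94, and the sum of the targets was not tested. TOE2, a floral repressor of the AP2 family, was the 1 of 6 tested, with 6, 9 and 11 reads in paps1-3 and 9, 15 and 23 in WT (log2 0.28, SE 0.40, edgeR adjusted p = 0.672). With all counted reads TOE2 was at −0.52 (edgeR adjusted p = 0.376). AP2 had 2, 5 and 3 reads in paps1-3 and 4, 10 and 16 in WT. TOE1, TOE3, SMZ and SNZ, which also repress flowering or are close relatives, had 1, 4, 3 and 1 reads in paps1-3 and 15, 12, 11 and 7 in WT, summed over 3 libraries. At 21 nt the 6 targets had 2, 2 and 5 reads in paps1-3 and 1, 5 and 6 in WT.

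Upstream in the age pathway, miR156 loci were lower in paps1-3. Of 8 loci MIR156a to MIR156h, 6 were tested at 21 nt and all 6 were lower, where edgeR called 4.68% of all features and 21.2% of 80 tested miRNA loci lower. Their median log2 fold change was −1.69, against −0.13 for all features. MIR156f, with the most 21-nt reads, had 335 ± 109 CPM in paps1-3 and 931.7 ± 196 CPM in WT (SD, n = 3 each, log2 −1.48, SE 0.33, edgeR adjusted p = 0.00593). The fall of these 6 was also called with all counted reads and with miRNA loci. Their summed counts were nearly equal, from 4783 to 5160 reads of 21 nt over the 6 libraries, and how reads that match several of them were assigned is not given, so they may not be 6 separate results.

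Of the SPL genes, reads on SPL10 fell and those on SPL15 rose. SPL10 had 183, 200 and 223 reads of 21 nt in paps1-3 and 1021, 1229 and 1105 in WT (264 ± 57.7 and 709 ± 136 CPM, SD, n = 3 each, log2 −1.43, SE 0.31, edgeR adjusted p = 0.00522). Whether these are reads of SPL10 itself or of a miRNA that resembles or pairs with it could not be told, since positions and strand were not used. SPL15 had 21, 29 and 37 reads of all lengths in paps1-3 and 7, 10 and 14 in WT (log2 2.62, SE 0.32, edgeR adjusted p = 0.000143). SPL9 had 6 reads in paps1-3 and 29 in WT, summed over 3 libraries, and was not tested. Among 6 genes of miRNA biogenesis, 4 were tested over all lengths and none was called by edgeR with TMM. Of all features, that fit called 14.3% higher and 3.99% lower. With all counted reads AGO1 (−0.88) and SE (−1.43), a partner of the Dicer enzyme DCL1, were called lower (edgeR adjusted p = 0.0321 and 0.0344). In that scaling 5426 of 13464 features were called lower, and the median log2 fold change was −0.94. With miRNA loci DCL1 was called higher (0.71, edgeR adjusted p = 0.0424), as were 2944 of 13464 features, with a median of 0.23. AGO1, the Argonaute that carries most miRNAs, had the most reads, at 14.5 ± 1.59 CPM in paps1-3 and 14.9 ± 3.38 CPM in WT (SD, n = 3 each, log2 −0.046, edgeR adjusted p = 0.909) with TMM.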

How the data were processed

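Per the file headers, each deposited file gives raw whole-number counts on annotated segments, split by read length (18 to 28 nt). Trimmomatic, BWA, SAMtools and bedtools and the build TAIR10 are named without versions in the submitters' processing notes. Neither the headers nor the labels state the handling of strand or of multiply mapped reads. Counts were summed per ID over segments. Sequences and names came from RefSeq on TAIR10.1.

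Features were tested with edgeR 4.0.16 (R 4.3.3), robust quasi-likelihood, TMM, filterByExpr and Benjamini-Hochberg adjustment over all features at 0.05, without block, per length and over all lengths. The step was tested on simulated data with equal numbers of rises and falls. The calls here were lopsided, so that test does not cover how they depend on scaling. Python 3.11.15, scipy 1.17.1 and matplotlib 3.10.9 gave exact tests and figures. Alternatives used DESeq2 1.42.0, limma 3.58.1, other scalings, filters, a block and left-out libraries. Libraries ranged from 5562287 to 10139424 reads, and exact intervals cover counting error only. Named genes were the 5 loci, the targets, the member with most reads or called in each other list, and the 3 nearest miRNA loci per member. Members, lists and the ratio were chosen with earlier results of these data known.

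Deviations from the genotype means correlated between adjacent library numbers (r of 0.43, 0.26 and 0.25 for 16 with 15, 20 with 19 and 26 with 25; other pairs −0.32 to 0.13), so these were taken as the isolations; the labels name 3 paired isolations but not their libraries.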

Additional observations from a re-analysis of the deposited data

How the results depend on the processing

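The ratio of reads on MIR172c and MIR172d to those on MIR172a and MIR172b kept its direction under every setting but 1. Its log2 difference of 2.31 was 1.98 with 20- to 22-nt reads and 1.29 with all lengths, and 2.12 to 2.46 with a library left out. It was the same with the assumed isolation as a replicate block (exact permutation p = 0.25, the smallest 3 pairs allow). With 18- to 20-nt reads, added after seeing the data, the difference was reversed at −0.63, but such reads that lack the 3′ end cannot be assigned to a pair. With all counted reads the log2 fold changes of MIR172c and MIR172d at 21 nt were 0.94 and 0.71 and over all lengths 0.66 and 0.60, none called. In the same setting MIR172a at 21 nt was called at −1.91. Over all lengths MIR172a and MIR172b changed sign to −0.77 and −0.70, where the median of all features was −0.94. With no count filter MIR172d at 21 nt had 1.24 and lost its call (edgeR adjusted p = 0.150). With the replicate block MIR172a at 21 nt was called (−1.12), MIR172c over all lengths was not (1.60, edgeR adjusted p = 0.0520), and no other call of a locus changed. Over all features at 21 nt, the 462 higher and 149 lower calls were 710 and 353 with the block, 199 and 1005 with all counted reads, 812 and 71 with miRNA loci, and 242 and 102 with no filter.

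Leaving out 1 library gave 1.47 to 1.99999 for MIR172c and 1.19 to 1.73 for MIR172d at 21 nt, and 1.34 to 1.86 and 1.30 to 1.72 over all lengths. MIR172a ran from −1.48 to −0.81 at 21 nt and −0.16 to 0.66 over all lengths, the negative value being that without WT 15. MIR172b ran from −1.53 to 0.032 at 21 nt and −0.19 to 0.62 over all lengths, negative without paps1-3 26 (−0.19) and WT 15 (−0.037). Without both 15 and 16, added after seeing the data, MIR172c and MIR172d at 21 nt had 1.46 and 1.31 and kept their calls, and MIR172a was called at −1.54 (edgeR adjusted p = 0.00980), but was reversed to −0.17 over all lengths. DESeq2, limma-trend, RLE factors, miRNA-locus scaling, the stricter filter and the removal of structural and organellar features changed no call of a locus they tested; the stricter filter dropped MIR172a at 21 nt and MIR172e over all lengths. At 20, 22 and 24 nt no locus passed the filter with TMM and all libraries. At 22 nt MIR172c passed with some libraries left out, at −0.69 to 0.095, and MIR172d without structural and organellar features, at 0.32. None of these was called, nor was any locus at these lengths with no filter. The cause of these shifts was not tested. Few reads lie behind MIR172e (67 over all lengths) and behind all loci at 24 nt (3), so changes there were not detectable at this depth.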
